A study of Mus musculus with 6 samples.

Results

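The 32 genes described here encode the transcription factor TFEB, proteins of the lysosomal membrane, lysosomal hydrolases and an activator of them, subunits of the lysosomal proton pump, and proteins of autophagy. They were found in the deposited table by their gene symbols, with none absent, and made up 32 of its 24589 genes. Transcript levels had been measured by bulk RNA-seq in primary CD8+ T cells of wild-type (WT) mice, in 3 libraries with DMSO, the solvent control, and 3 with TVA (trans-vaccenic acid, a trans fatty acid found in ruminant milk and meat). In both groups the cells had first been activated with antibodies against CD3 and CD28, which stand in for the signals of the antigen receptor and of costimulation, and were then kept for 24 h in Click's medium with serum and either DMSO or 20 µM TVA. They had been purified with magnetic beads from lymph nodes and spleens of C57BL/6 mice. By the age range in the methods, the mice of the study were young adults, of both sexes and matched for age and sex. Whether the libraries of a group came from separate animals or cultures is not given in the sources used here, so the p-values measure only the spread between these samples, which may be technical. The comparison asks which of these genes differed in transcript level between TVA and DMSO.

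Lysosomes are acidic compartments in which proteins, glycans, nucleic acids and lipids are broken down by hydrolases that work at low pH, a pH set by the vacuolar proton pump. Many genes of the lysosome are switched on together by TFEB, which binds a short palindrome in their promoters and which the nutrient-sensing kinase complex mTORC1 keeps in the cytoplasm while amino acids are plentiful. Autophagy feeds lysosomes from within the cell: the ULK1 kinase starts a membrane sac, ubiquitin-like proteins of the LC3 and GABARAP families are attached to that membrane, and the cargo receptor p62, the product of Sqstm1, links ubiquitin-tagged cargo to them. In CD8+ T cells, lytic granules are lysosome-related organelles, and cathepsins take part in preparing granzymes and in protein turnover.

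Promoter sequences are shown for 5 of the genes because TFEB and CREB, the cAMP-dependent factor that the study followed, are known to act through short palindromes near start sites. RefSeq promoter windows (GRCm38.p6, the assembly also called mm10), from 250 bases before to 50 bases after a start, were matched for 28 of the 32 genes, and Ctsb, Ctsh, Asah1 and Atp6v1h had no window. Lamp1 is printed as the member with CACGTG at the most places and Mcoln1 as one with the longer TCACGTGA. Lipa and Psap are printed as members called higher with TVA, and Sqstm1 as the member called lower. Each line gives the 250 bases before the start, 5′ to 3′ on the gene's strand, with CACGTG or the longer TCACGTGA in capitals. The windows lie at chr8:13158911-13159160 (plus strand) for Lamp1, chr8:3500269-3500518 (plus) for Mcoln1, chr19:34527475-34527724 (minus) for Lipa, chr10:60277378-60277627 (plus, the first of its windows) for Psap and chr11:50210821-50211070 (minus) for Sqstm1.
Lamp1: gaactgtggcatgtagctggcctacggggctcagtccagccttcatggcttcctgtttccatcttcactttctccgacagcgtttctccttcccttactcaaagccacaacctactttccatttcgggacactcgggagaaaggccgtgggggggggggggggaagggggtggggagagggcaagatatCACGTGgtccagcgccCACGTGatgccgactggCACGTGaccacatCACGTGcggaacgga
Mcoln1: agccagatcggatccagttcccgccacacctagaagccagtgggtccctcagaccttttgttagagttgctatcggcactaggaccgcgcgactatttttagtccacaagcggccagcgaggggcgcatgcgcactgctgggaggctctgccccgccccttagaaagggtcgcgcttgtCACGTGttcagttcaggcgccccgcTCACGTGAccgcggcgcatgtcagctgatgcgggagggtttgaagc
Lipa: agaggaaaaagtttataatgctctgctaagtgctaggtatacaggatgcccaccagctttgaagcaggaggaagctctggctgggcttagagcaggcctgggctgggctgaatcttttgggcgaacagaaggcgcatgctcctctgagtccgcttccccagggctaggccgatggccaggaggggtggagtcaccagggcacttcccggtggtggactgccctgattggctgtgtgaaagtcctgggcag
Psap: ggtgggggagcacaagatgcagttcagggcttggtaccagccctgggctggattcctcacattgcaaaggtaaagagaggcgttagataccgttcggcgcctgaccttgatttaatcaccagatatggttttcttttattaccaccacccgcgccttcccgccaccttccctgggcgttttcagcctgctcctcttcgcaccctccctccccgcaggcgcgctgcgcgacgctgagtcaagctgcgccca
Sqstm1: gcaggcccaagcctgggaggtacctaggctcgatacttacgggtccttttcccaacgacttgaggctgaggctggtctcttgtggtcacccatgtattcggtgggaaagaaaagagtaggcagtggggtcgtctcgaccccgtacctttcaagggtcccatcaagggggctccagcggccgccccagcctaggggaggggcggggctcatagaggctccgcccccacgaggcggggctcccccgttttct

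Lamp1 held CACGTG at 4 places, with first bases at -61, -45, -28 and -15 from the start, and Mcoln1 held CACGTG at -71 and TCACGTGA at -46. The printed windows of Lipa, Psap and Sqstm1 held neither. Over whole windows, CACGTG was present for 10 of the 28 genes (35.7%), against 12.3% of the 8469 tested genes with a window and 7.15% of all 32851 windows. The longer TCACGTGA, which contains CACGTG and is the core of the sequence that TFEB binds, was present for 6 of 28 (21.4%), namely Mcoln1, Ctsa, Ctsd, Gla, Atp6v0d1 and Atp6v1a, against 2.43% of tested genes and 0.974% of windows. The full cAMP response element TGACGTCA was present for 1 of 28 (3.57%), Gusb, against 3.94% of tested genes and 1.79% of windows. All these motifs are palindromes, so that both strands are read at once. A match is a description of the sequence and not of binding.

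The motif can be read against the test described next. Of the 7 called genes that had a window, 1 held CACGTG (Ctsl, at -236) and 0 held TCACGTGA, and of the 21 others with a window 9 held CACGTG and 6 held TCACGTGA. The median log2 change between TVA and DMSO was 0.11 for the 10 genes with CACGTG and 0.068 for the 18 without it. For TCACGTGA it was 0.086 for the 6 genes with it and 0.071 for the 22 without.

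Levels are given as TPM (a level per unit of transcript length, scaled so that each library has the same total), so that genes can be compared with each other. TPM keeps no trace of sequencing depth, which is unknown here. Tests were made with limma on log2(TPM + 1), where a log2 change is TVA minus DMSO and understates the change of genes at low TPM. A gene was tested if it reached 1 TPM in at least 3 libraries, as did all 32 genes and 10866 genes in all, and it was called if its adjusted p (Benjamini-Hochberg, over all genes tested) was under 0.05. In bulk samples a difference in the number of cells of a type and a difference in RNA per cell cannot be told apart.

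The libraries of the DMSO group were less alike than those of the TVA group. On the first principal component of all genes tested (59.1% of the variance) the TVA libraries lay between 8.80 and 10.8, DMSO replicates 1 and 3 at -18.2 and -12.8, and DMSO replicate 2 at 1.23, close to the TVA group. The log2 change of a gene followed the GC content of its transcripts across all genes tested (Spearman -0.401, across genes, which are not independent replicates), so results after a GC correction are given where they change a call. The part of GC dependence in the results was otherwise not tested. The median GC content was 52.3% for the 32 genes and 50.4% for all genes tested. The CD8 T cell markers Cd8a (274 to 299.8 TPM under DMSO and 312 to 318 with TVA), Cd8b1, Cd3e and Lck were among the more abundant transcripts of every library, as the cells' label says.

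TVA was accompanied by small rises of a subset of lysosomal hydrolase genes and by a fall of the autophagy receptor gene Sqstm1. Of the 32 genes, 9 were called (28.1%), where 8.51% of all genes tested were. The 32 genes were chosen with earlier results of these data known, so these shares only describe the list. Called higher with TVA were 8 genes, Lipa, Asah1, Psap, Ctsb, Ctsl, Ctss, Ctsc and Atp6ap1, in a comparison in which 5.28% of all genes tested were called higher. Called lower was 1, Sqstm1, where 3.23% of all genes tested were called lower. The other 23 genes, Tfeb among them, did not pass. The log2 changes of the called genes ran from 0.18 to 0.31 and, for Sqstm1, stood at -0.42, and the largest fold change upwards, of TPM + 1, was 1.24 (Lipa). Macrophage and monocyte markers were higher with TVA too, with a summed level of 74.6 to 85.4 TPM in the DMSO libraries and 99.6 to 103 TPM in the TVA libraries, and their part in these rises was not tested.

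Of the 32 genes, 25 had a change above 0 and 7 below. Their median log2 change was 0.11, and that of all genes tested was 0.039. The 3 TVA values lay above all 3 DMSO values for 14 of the 32 genes, where 27.3% of all genes tested did, and below them for 2, Sqstm1 and Gaa, where 11.2% of all genes tested did. The groups overlapped for the remaining 16.

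The number of calls depended on single libraries and on the scaling. With any TVA library left out, limma called 0 of the 32 genes, and the share called of all genes fell to between 0.939% and 1.15%. An unadjusted p under 0.05 in limma was then found for 10 or 11 of the 32 genes. In the main fit it was found for 12 of the 32 and for 3451 of all 10866 genes tested. Without DMSO replicate 3, 3 were called (Lipa, Asah1 and Psap), and without DMSO replicate 2, the control closest to the TVA libraries, 9 were, the same 9 genes. The share called of all genes was 2.71% without DMSO replicate 3 and 20.6% without DMSO replicate 2, so that in the latter case the share of the 32 genes, 28.1%, stood closer to that of all genes. After a GC correction, after median-of-ratios scaling or after quantile normalization, 5 of the 32 were called in each case, namely Ctsb, Lipa, Asah1, Psap and Sqstm1. The share called of all genes was 9.48%, 7.01% and 7.13% under these settings, in that order.

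**Figure D1:**
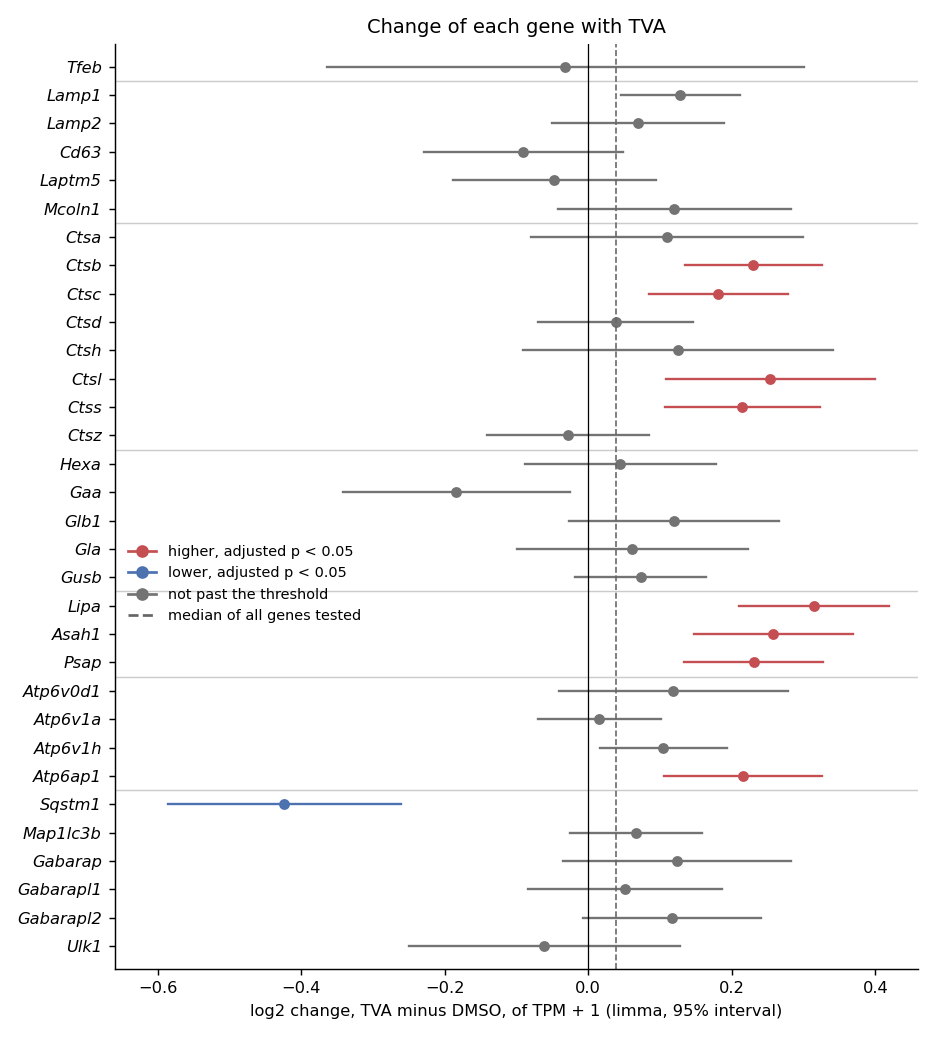
Log2 change of TPM + 1, TVA minus DMSO, for each of the 32 genes on the x axis, with the 95% interval of limma (n = 3 and 3), ordered by role. Red and blue mark the genes called higher and lower, the dashed line marks the median of all genes tested (0.039), and the 3 lipid hydrolase and activator genes stand to the right while Sqstm1 stands alone to the left.

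The lysosomal lipid-handling genes were the role in which all members were called, 3 of 3, all higher with TVA. Among 13 other lipid hydrolases, activators and nucleases, described further on, 1 was called, lower with TVA, and the median log2 change was -0.0185. Lipa encodes lysosomal acid lipase, which frees fatty acids and cholesterol from triglycerides and cholesteryl esters delivered to the lysosome. It stood at 21.6, 22.8 and 20.8 TPM in DMSO replicates 1, 2 and 3 and at 27.4, 27.2 and 27.3 TPM in TVA replicates 1, 2 and 3. The groups did not overlap, and the TVA libraries lay close together (21.8 ± 0.990 TPM under DMSO and 27.3 ± 0.106 TPM under TVA, SD, n = 3). The log2 change of Lipa was 0.31 (SE 0.045, adjusted p 0.0121 in limma), the largest rise among the 32 genes. It was called under 11 of 14 alternative settings, all except those without a TVA library (adjusted p 0.00334 to 0.0734).

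Asah1, which encodes acid ceramidase, the enzyme that splits ceramide into sphingosine and a fatty acid, stood at 20.7, 21.2 and 22.5 TPM in the DMSO libraries and 25.3, 26.8 and 25.5 TPM in the TVA libraries. Its log2 change was 0.26 (SE 0.048, adjusted p 0.0232 in limma). Psap encodes prosaposin, the precursor of the saposins that present sphingolipids to their hydrolases, and was the most abundant of the 3 genes. It stood at 151, 156 and 143 TPM in the DMSO libraries and 177, 178 and 174 TPM in the TVA libraries, with a log2 change of 0.23 (SE 0.042, adjusted p 0.0218 in limma). For both genes every TVA library lay above every DMSO library. Summed over the 3 genes, the level was 193 ± 6.94 TPM under DMSO and 229 ± 2.32 TPM under TVA (SD, n = 3). Asah1 and Psap were each called under 10 of 14 alternatives, the exceptions being the replicate block (adjusted p 0.0589 and 0.052) and the settings without a TVA library.

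Cathepsins, the lysosomal peptidases, split into 4 genes that rose and 4 that did not pass. Ctsb, a broad-acting cysteine protease, stood at 42.7, 44.1 and 41.2 TPM in the DMSO libraries and 49.8, 51.3 and 49.3 TPM in the TVA libraries, with a log2 change of 0.23 (SE 0.041, adjusted p 0.0213 in limma). Ctss, a cysteine protease known from the trimming of the invariant chain in antigen presentation, stood at 87.6, 95.2 and 96.4 TPM and 105, 109.6 and 109 TPM, with a log2 change of 0.21 (SE 0.047, adjusted p 0.0362 in limma). In both, the lowest TVA library lay above the highest DMSO library.

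Ctsc encodes the dipeptidyl peptidase that activates granzymes by removing their amino-terminal dipeptide. It stood at 26.95, 28.04 and 27.8 TPM in the DMSO libraries and 31.6, 32.2 and 30.4 TPM in the TVA libraries, and its log2 change of 0.18 (SE 0.042, adjusted p 0.0423 in limma) was the smallest among the called genes. Ctsl, another cysteine protease, was the least abundant called gene, at 7.02, 7.75 and 6.66 TPM in the DMSO libraries and 8.49, 8.64 and 8.96 TPM in the TVA libraries, with a log2 change of 0.25 (SE 0.063, adjusted p 0.049 in limma). Its groups were apart, but the call lay close to the threshold. After the GC correction, the log2 change was 0.10 for Ctsc (adjusted p 0.12), 0.14 for Ctss (0.0602) and 0.20 for Ctsl (0.0671), and these were no longer called, while Ctsb was (0.017). Over all alternatives the adjusted p ran from 0.00906 to 0.121 for Ctsb, 0.0309 to 0.181 for Ctsc, 0.015 to 0.179 for Ctsl and 0.0207 to 0.159 for Ctss.

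Ctsd, the aspartic protease and the most abundant cathepsin gene, stood at 245, 256 and 232 TPM in the DMSO libraries and 254, 244 and 255 TPM in the TVA libraries, so that the groups overlapped. Its log2 change was 0.038 (95% interval -0.069 to 0.15, adjusted p 0.593 in limma). The intervals of the other 3 also held 0. They were -0.079 to 0.30 for Ctsa, the carboxypeptidase that protects beta-galactosidase and neuraminidase, -0.091 to 0.34 for Ctsh, an aminopeptidase, and -0.14 to 0.085 for Ctsz, a carboxypeptidase. Ctsa was at 29.1, 28.7 and 23.2 TPM in the DMSO libraries, where replicate 3 was the low value, and at 28.9 to 29.4 TPM under TVA. Summed over the 8 cathepsin genes, the level was 547 ± 21.0 TPM under DMSO and 582 ± 3.53 TPM under TVA (SD, n = 3).

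**Figure D2:**
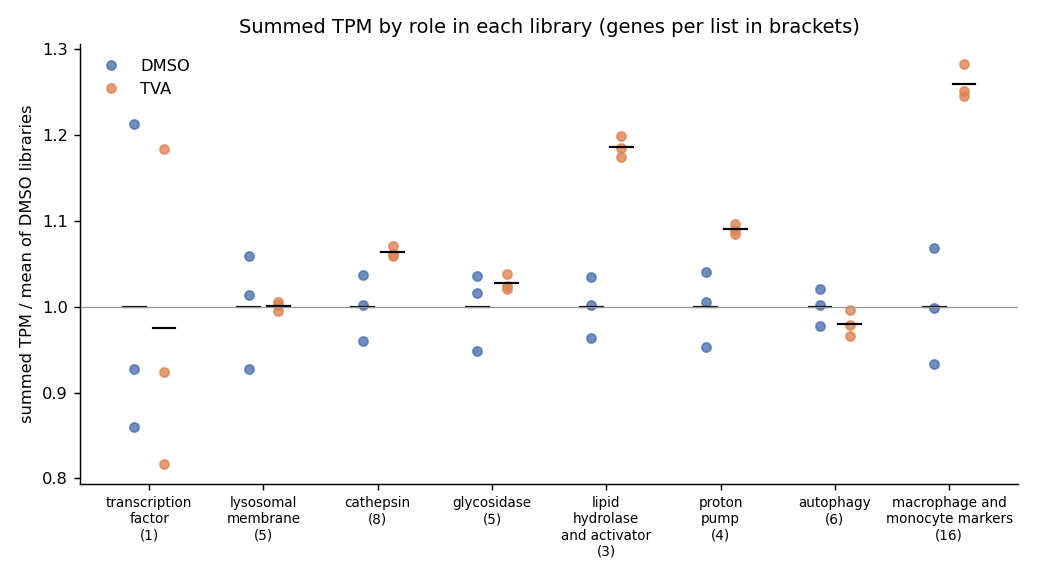
Summed TPM of each role divided by the mean of its 3 DMSO libraries, on a linear axis, with a point for each library and a bar for each group mean (the number of genes is in brackets; the transcription factor is Tfeb alone). The lipid-handling genes, the cathepsins and the proton pump lie above all DMSO libraries with TVA, the membrane, glycosidase and autophagy sums overlap, and the macrophage and monocyte marker list, described further on, lies higher still.

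Of the genes of the vacuolar proton pump, Atp6ap1, an accessory subunit needed for pump assembly, was called, 1 of 4. It stood at 74.2, 82.4 and 74.9 TPM in the DMSO libraries and 90.7, 88.9 and 89.6 TPM in the TVA libraries, with a log2 change of 0.22 (SE 0.047, adjusted p 0.0371 in limma), and it was not called after the GC correction (adjusted p 0.0593, with a range of 0.00466 to 0.15 over all alternatives). Atp6v1h, a regulatory subunit of the part that splits ATP, stood at 59.5, 59.4 and 56.8 TPM and 61.7, 63.9 and 63.6 TPM. Its groups did not overlap, but with a log2 change of 0.10 its adjusted p was 0.113. Atp6v0d1, a subunit of the membrane part, was at 56.7, 56.5 and 47.7 TPM in the DMSO libraries and 58.99, 58.7 and 56.8 TPM in the TVA libraries, again with replicate 3 as the low DMSO value (log2 change 0.12, 95% interval -0.041 to 0.28). Atp6v1a, the subunit that holds the catalytic site, was nearly level at 55.4 to 57.95 TPM and 56.8 to 58.4 TPM (log2 change 0.015, 95% interval -0.0704 to 0.10), and its direction changed with the scaling and after the GC correction. The narrow interval leaves out changes of the size seen for Atp6ap1. The 4 genes summed to 246 ± 10.8 TPM under DMSO and 268 ± 1.36 TPM under TVA (SD, n = 3).

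Sqstm1 was the largest change among the 32 genes and the single fall that was called. It encodes p62, the receptor that carries ubiquitinated cargo into autophagosomes and is itself degraded with it, and its transcript is a known target of the oxidative stress factor NRF2. Its level was 193, 157 and 178 TPM in the DMSO libraries and 130.2, 130.4 and 131 TPM in the TVA libraries. The DMSO libraries were spread, with replicate 2 the lowest, and the TVA libraries lay together below all of them (176 ± 18.2 and 131 ± 0.507 TPM, SD, n = 3). The log2 change was -0.42 (SE 0.07, 95% interval -0.59 to -0.26, adjusted p 0.0172 in limma). Without DMSO replicate 2 the log2 change was -0.50 (adjusted p 0.000544), and over all alternatives the adjusted p ran from 0.000544 to 0.0925, and the gene was not called without DMSO replicate 3 or without any TVA library.

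The other 5 autophagy genes did not pass. Ulk1, the kinase that starts autophagosome formation, stood at 15.1, 13.5 and 11.8 TPM in the DMSO libraries, where it varied most, and 12.9, 12.7 and 12.8 TPM in the TVA libraries (log2 change -0.061, 95% interval -0.25 to 0.13). Map1lc3b, which encodes the LC3 protein used as the standard autophagosome mark, was at 74.9, 73.4 and 74.1 TPM and 77.04, 75.2 and 80.8 TPM, without overlap but with an adjusted p of 0.282. Gabarap, the most abundant autophagy gene by mean over the 6 libraries (Sqstm1 had the higher mean under DMSO), was at 152, 182 and 174 TPM and 177, 189.7 and 186 TPM, which overlapped. Gabarapl2 stood at 134, 150.5 and 149 TPM and 153, 153 and 163 TPM with a log2 change of 0.12 (adjusted p 0.177), and Gabarapl1 ranged from 73.8 to 85.4 TPM and from 81.6 to 85.98 TPM (95% interval -0.084 to 0.19). The 6 autophagy genes together summed to 658 ± 14.2 TPM under DMSO and 645 ± 9.81 TPM under TVA (SD, n = 3), and these sums overlapped.

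Tfeb transcripts were low and did not differ detectably. They stood at 7.08, 5.02 and 5.41 TPM in the DMSO libraries and 6.91, 4.77 and 5.39 TPM in the TVA libraries, each group with 1 library above the others, and the log2 change was -0.032 (SE 0.14, 95% interval -0.36 to 0.30, adjusted p 0.89 in limma). The interval is wide and allows changes in either direction of a size seen for the called genes. TFEB is regulated mainly by phosphorylation and its place in the cell, which transcript levels do not show. Of its relatives, which can act on the same promoters, Tfe3 stood at 25.02, 22.9 and 21.6 TPM and 23.98, 24.2 and 22.8 TPM (log2 change 0.032, adjusted p 0.737), and Mitf and Tfec were below the filter.

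Genes of the lysosomal membrane were not called, 0 of 5 by limma. Where 3451 of all 10866 genes tested had an unadjusted p under 0.05 in limma, 1 of these 5 did. That 1 was Lamp1, which encodes a major glycoprotein of the lysosomal membrane and a surface mark of degranulation in CD8+ T cells. It stood at 149.5, 149 and 144 TPM in the DMSO libraries and 157, 164 and 163 TPM in the TVA libraries, a small but separate shift with a log2 change of 0.13 (SE 0.036, adjusted p 0.0622 in limma), and it was called under none of 14 alternatives (adjusted p 0.0504 to 0.234). Laptm5, which encodes a lysosomal membrane protein of blood cells that promotes the degradation of the T cell receptor zeta chain, was the most abundant of the 32 genes. Its level was 460.5, 437 and 389 TPM in the DMSO libraries and 419, 408 and 415 TPM in the TVA libraries, so that the TVA values fell inside the DMSO range.

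Lamp2, a membrane glycoprotein with a part in chaperone-mediated autophagy, ranged from 17.4 to 19.2 TPM under DMSO and from 18.4 to 19.4 TPM under TVA. Cd63, a tetraspanin of late endosomes and lytic granules, stood at 11.3, 12.02 and 10.7 TPM and 10.2, 10.4 and 11.2 TPM (log2 change -0.0905, 95% interval -0.23 to 0.048). Mcoln1, the lysosomal calcium channel through which TFEB can be activated, stood at 15.4, 12.8 and 13.02 TPM and 14.9, 15.02 and 15.01 TPM, with DMSO replicate 1 above all TVA libraries. Its log2 change of 0.12 (adjusted p 0.268) was called only in the fit without DMSO replicate 1 (adjusted p 0.0343), with 0.0343 to 0.483 as the range over all alternatives. Summed over the 5 membrane genes the level was 620 ± 41.2 TPM under DMSO and 619.9 ± 3.16 TPM under TVA (SD, n = 3).

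The glycosidases, which cut sugars from glycans, glycolipids and glycogen, were not called either, 0 of 5 by limma. An unadjusted p under 0.05 in limma, found for 3451 of all 10866 genes tested, was found for 1 of the 5. That gene was Gaa, acid alpha-glucosidase, which breaks down glycogen in lysosomes. It stood at 22.95, 20.1 and 18.97 TPM in the DMSO libraries and 17.8, 18.3 and 17.9 TPM in the TVA libraries, without overlap, and its log2 change of -0.18 had a 95% interval of -0.34 to -0.025 (adjusted p 0.117 in limma). Its transcripts had a GC content of 59.2%, the highest of the 32 after Tfeb, and the GC-corrected log2 change was -0.10 (adjusted p 0.127, range 0.0586 to 0.279 over all alternatives). The remaining 4 had log2 changes from 0.045 (Hexa, the alpha subunit of beta-hexosaminidase) to 0.12 (Glb1, lysosomal beta-galactosidase), with intervals that held 0. Gusb, beta-glucuronidase, was the most abundant at 72.9, 72.7 and 68.8 TPM and 73.8, 76.3 and 75.5 TPM, and Gla, alpha-galactosidase A, the least at 7.03, 7.99 and 6.59 TPM and 7.6, 7.51 and 7.51 TPM.

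**Figure D3:**
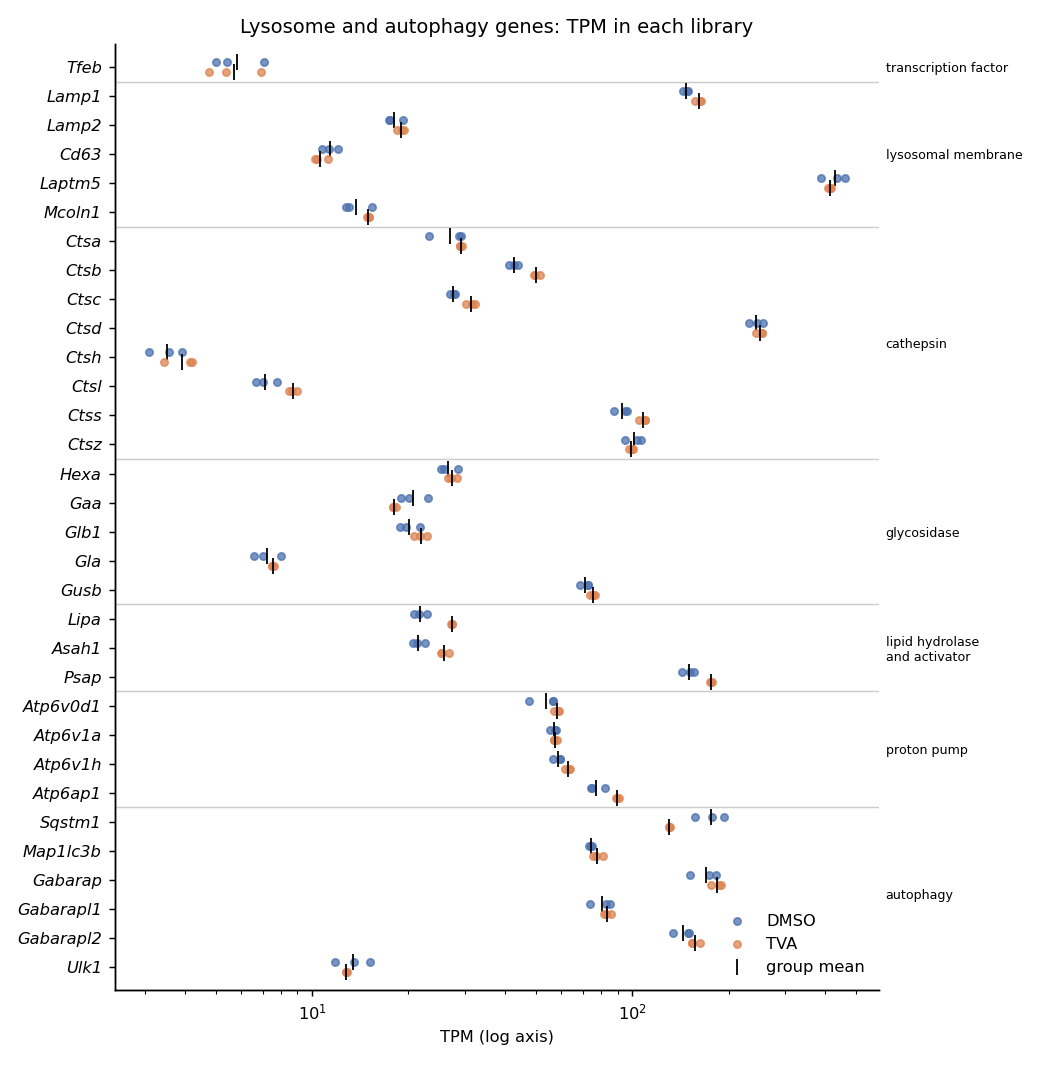
TPM of each of the 32 genes in each library on a log axis, with DMSO above TVA within a row and a bar for each group mean (n = 3 and 3). The levels run from Ctsh at 3.10 TPM to Laptm5 at 460.5 TPM, and in most rows the 3 TVA points lie closer together than the 3 DMSO points.

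The 32 genes together made up 0.234% to 0.251% of all TPM of a library. Their sum was 2447, 2465 and 2337 TPM under DMSO and 2491, 2498 and 2512 TPM under TVA, and all TVA sums lay above the DMSO sums (2416 ± 69.4 and 2500 ± 11 TPM, SD, n = 3). Laptm5 alone held 16.3% to 18.8% of it, and the 8 most abundant genes held 63.1% to 65.1%. By mean over the 6 libraries, 9 genes were at 100 TPM or more, 19 from 10 to under 100, and 4 (Ctsl, Gla, Tfeb and Ctsh) under 10.

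In order of mean level, Laptm5 (422 TPM) and Ctsd (248 TPM) were set apart from each other and from the rest over all 6 libraries. Gabarap (177 TPM), Psap (163 TPM), Lamp1 (154 TPM), Sqstm1 (153 TPM) and Gabarapl2 (151 TPM) followed, and each overlapped the next in its range over libraries. Ctss (101 TPM) and Ctsz (100.4 TPM) overlapped as well. At the lower end Tfeb (5.76 TPM) lay above Ctsh (3.73 TPM) without overlap. The called genes ran from Psap near the top of this order to Ctsl near its end.

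The TVA libraries varied less than the DMSO libraries for most of these genes. The median coefficient of variation (SD as a share of the mean) was 6.08% with DMSO and 2.13% with TVA, and it was the larger with DMSO for 28 of 32 genes (87.5%). Over all genes tested the medians were 6.17% and 3.17%, and 74.4% varied more with DMSO, so the same tilt was present across the table.

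**Figure D4:**
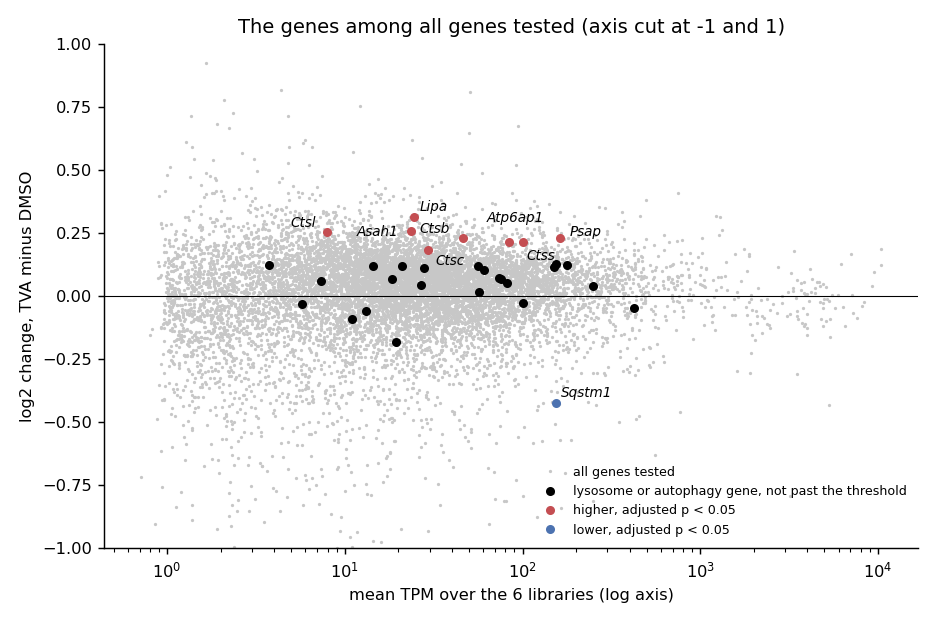
Log2 change of TPM + 1, TVA minus DMSO, against the mean TPM over the 6 libraries (log axis) for all 10866 genes tested in grey, with the 32 genes in black, red (called higher) or blue (called lower). The y axis ends at -1 and 1, which leaves out 42 genes; the 32 genes lie between -0.42 and 0.31, within the cloud of all genes.

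A wider list of 178 other lysosome and autophagy genes was read in the same way. Of these, 168 were tested and 19 were called (11.3%, against 8.51% of all genes tested), 13 higher and 6 lower with TVA, and their median log2 change was 0.064. The TVA values lay above all DMSO values for 56 of the 168, where 27.3% of all genes tested did, and below for 12, where 11.2% did. Without overlap in either direction were 40.5% of the 168 and 38.6% of all genes tested. The balance of directions rested on the scaling: 68.4% of the called genes were higher, but 36.4% of 11 after median-of-ratios scaling, 50% of 12 after quantile normalization and 52.9% of 17 after the GC correction. In that order, 7.01%, 7.13% and 9.48% of all genes tested were called. The 11, 12 and 17 calls of 168 genes stood close to those shares.

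By role, glycosidases and sulfatases had 5 of 20 called, control genes of TFEB and mTORC1 6 of 34, autophagy receptors and fusion genes 3 of 13, and lysosomal membrane genes 2 of 27. Peptidases had 1 of 9, lipid hydrolases, activators and nucleases 1 of 13, and autophagy initiation genes 1 of 21. No gene was called by limma among the 14 other proton pump subunits, the 11 autophagy conjugation genes and the 6 genes of mannose 6-phosphate sorting. Of these, 3, 2 and 1 had an unadjusted p under 0.05 in limma, as had 3451 of all 10866 genes tested.

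The largest rise among the other genes was that of Scpep1, which encodes a serine carboxypeptidase of lysosomes. It stood at 17.7, 18.5 and 18.1 TPM in the DMSO libraries and 24.4, 23.6 and 26.2 TPM in the TVA libraries (log2 change 0.43, SE 0.0495, adjusted p 0.00517 in limma), and it was called under 14 of 14 alternatives, those without a TVA library included. Lamtor2, a subunit of the Ragulator complex that holds mTORC1 at the lysosome, stood at 112, 115 and 120.0 TPM and 143, 141 and 142 TPM (log2 change 0.29, SE 0.038, adjusted p 0.00802 in limma). For both, the groups were well apart. Mfsd8, a lysosomal membrane transporter protein, was higher with TVA, at 5.14 to 5.5 TPM in the DMSO libraries and 6.7 to 7.29 TPM in the TVA libraries (adjusted p 0.0212), and the sulfatase genes Arsb (adjusted p 0.0394) and Ids (adjusted p 0.0444), whose enzymes break down glycosaminoglycans, had log2 changes of 0.27 and 0.25. Snap29, a SNARE protein of autophagosome fusion, had 0.24 (adjusted p 0.0474). The calls of Arsb, Ids and Snap29 were lost after the GC correction (adjusted p 0.0558, 0.0737 and 0.0979, with log2 changes of 0.23, 0.17 and 0.16).

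Genes of lipid and glycan breakdown were also among those that fell. Gm2a, which encodes the activator protein for GM2 ganglioside breakdown, stood at 19.8, 18.99 and 17.05 TPM in the DMSO libraries and 15.1, 15.1 and 15.3 TPM in the TVA libraries (log2 change -0.28, SE 0.059, adjusted p 0.034 in limma). Neu1, the lysosomal neuraminidase, stood at 21.2, 19.8 and 18.4 TPM and 16.8, 16.1 and 16.4 TPM (log2 change -0.25, SE 0.057, adjusted p 0.0412 in limma). In both genes every TVA library lay below every DMSO library. Bnip3, a mitophagy receptor induced by hypoxia, and Calcoco1, a receptor for autophagy of the endoplasmic reticulum and Golgi, had log2 changes of -0.28 and -0.23 (adjusted p 0.048 and 0.0481).

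Among the genes that report nutrients to mTORC1, the sestrin genes Sesn1 and Sesn2 moved in opposite directions. Sesn1, which encodes a sestrin that restrains mTORC1, stood at 15.1, 14.9 and 14.9 TPM in the DMSO libraries and 17.6, 17.6 and 18.2 TPM in the TVA libraries (log2 change 0.24, SE 0.041, adjusted p 0.0189 in limma). Its relative Sesn2, the leucine-binding sestrin and a target of the stress factor ATF4, stood at 79.3, 67.4 and 66.5 TPM and 59.2, 57.6 and 58.7 TPM (log2 change -0.27, SE 0.067, adjusted p 0.0492 in limma). Neither pair of groups overlapped, and neither gene changed sign under an alternative. Sesn3, another sestrin gene and outside the rule for named genes, was not called (log2 change 0.19, adjusted p 0.0513 in limma). Tsc1, part of the complex that holds mTORC1 in check, rose by 0.23 on the log2 scale (adjusted p 0.0471), and Wdr59, a subunit of the GATOR2 complex that supports mTORC1, fell by 0.29 (adjusted p 0.0191). Tsc1 was called under 4 of 14 alternatives and not after the GC correction (adjusted p 0.0548). Other called genes were Cd164, Fuca1, Manba, Tmem41b and Zkscan3, all higher, which lie outside the rule for named genes and are named after their values were seen. Of these, Cd164, Manba and Tmem41b were not called after the GC correction (adjusted p 0.0739, 0.0685 and 0.0926).

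Several of the hydrolases are also abundant in macrophages, and markers of myeloid cells moved in the same direction. Of 16 macrophage and monocyte markers, 9 were tested and 3 were called, all higher with TVA, and 7 of the 9 had TVA values above all DMSO values. Lyz2, lysozyme of myeloid cells, stood at 30.9, 30.98 and 28.9 TPM and 41.3, 39.8 and 38.01 TPM (log2 change 0.38, SE 0.048, adjusted p 0.00757 in limma). Mpeg1 (log2 change 0.43, adjusted p 0.0375) and Tyrobp (0.57, adjusted p 0.0439) were the others called. The receptor genes that define macrophages were at or near the lowest levels, with Csf1r at 0.64 to 0.82 TPM under DMSO and 1.00 to 1.28 TPM under TVA, and Adgre1 at 0.26 to 0.5 and 0.57 to 0.89 TPM. C1qa was between 0 and 0.22 TPM. The part of these cells in the rise of the hydrolase genes was not tested.

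The neutrophil list had 3 of 8 genes tested and 2 called higher, S100a9 and Mpo, with a sum of 10.4 to 14.9 TPM under DMSO and 17.2 to 20.1 TPM under TVA. The summed levels for dendritic cells, B cells, CD4 T cells and red cells did not lie higher with TVA. Those for NK cells and CD8 T cells did, but not through all genes of a list. The dendritic cell list summed to 31.0 to 33.2 TPM under DMSO and 26.6 to 29.1 TPM under TVA, with Cd209a listed at 0 in every library, the B cell list to 11.5 to 15.2 and 10.9 to 11.3 TPM, and the CD4 T cell list to 15.1 to 16.2 and 12.2 to 14.2 TPM. The red cell list overlapped (37.9 to 61.4 and 48.6 to 58.7 TPM). The NK cell list, 21.6 to 24.2 TPM under DMSO and 32.9 to 33.1 TPM under TVA, was tested through Eomes alone, which activated CD8+ T cells express too. Its other genes, Ncr1, Klrb1c, Klra8 and Klra4, were below the filter, each with a lower mean with TVA. The CD8 T cell list summed to 2590.2 to 2766 TPM under DMSO and 2822 to 2846 TPM under TVA, and 1 of its 9 genes, Cd3g, was called, higher with TVA. Of these 9 genes, 5 had a log2 change above 0 and 4 below, from -0.33 (Zap70) to 0.30 (Cd3d). The part of any of these in the results was not tested.

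Some values rest on exons that other genes share. In GENCODE vM21 (GRCm38), the exons of Ctsl overlap other annotated genes over 26.8% of their bases (Gm47123 and Gm49230), those of Sqstm1 over 17.3% (Mrnip, on the opposite strand) and those of Ctsb over 12.8% (Fdft1, on the opposite strand). Of the genes not called, Ctsd shared 34.4%, Gabarapl1 28.3%, Ctsa 17.4%, Hexa 12.8%, Lamp1 9.31% and Glb1 5.49%. Whether the quantification used strand is not given in the sources used here, so reads of such pairs cannot be told apart. The exons of Lipa (chr19:34492318-34527474, minus strand), Asah1 (chr8:41340197-41374773, minus), Psap (chr10:60277627-60302597, plus), Ctsc (chr7:88278085-88310888, plus), Ctss (chr3:95526786-95556403, plus) and Atp6ap1 (chrX:74297097-74304721, plus) overlapped no other gene. Sqstm1 itself lies at chr11:50199366-50210827 on the minus strand, Ctsb at chr14:63122462-63145923 on the plus strand and Ctsl at chr13:64359337-64370890 on the minus strand.

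**Figure D5:**
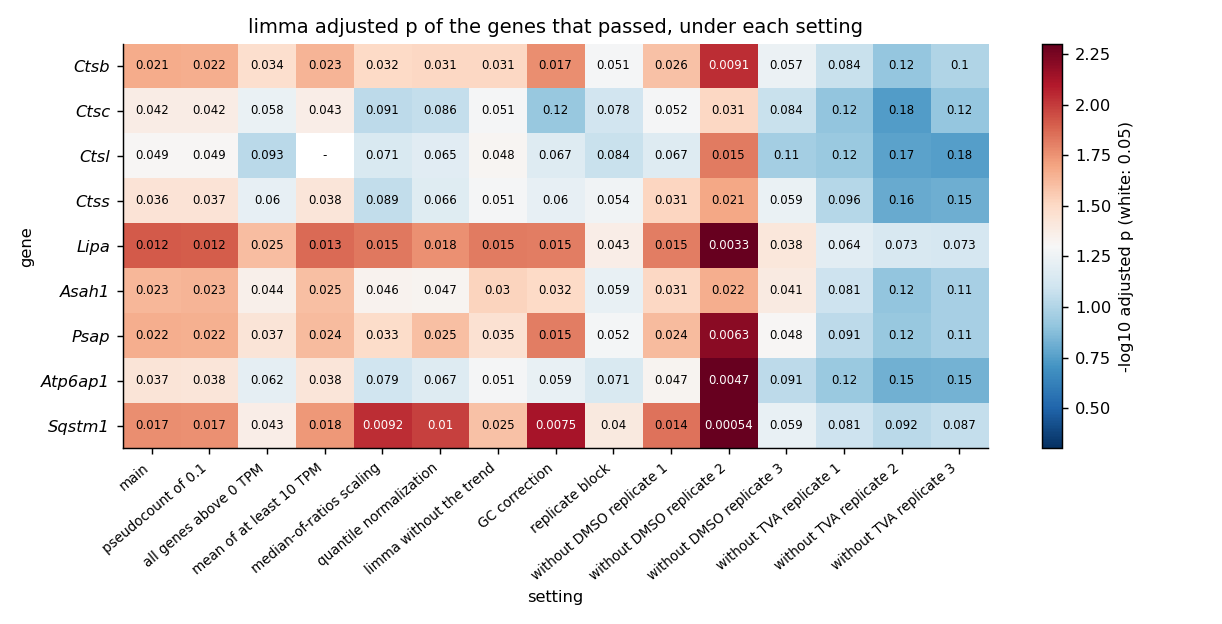
Adjusted p of limma for the 9 called genes under the main setting (first column) and each alternative, printed in the cells and coloured by -log10 of the adjusted p, with white at 0.05, red below it and blue above it. A dash marks a gene that the setting did not test. The columns without a TVA library are blue for all 9 genes, and Lipa is red in the other columns.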

How the data were processed

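Total RNA for the 6 libraries was prepared, per the labels, with an RNeasy Plus mini kit and a SMARTER mRNA-Seq kit. The authors deposited 1 table of TPM per gene symbol, rounded to 2 decimals. The submitters' processing notes name STAR, RSEM and mm10, with no versions. Columns were matched to libraries through the name that each library's description gives.

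The deposited TPM values were used as log2(TPM + 1) in limma 3.58.1 (R 4.3.3), with a variance trend, no covariates and a two-sided test, for genes with at least 1 TPM in at least 3 libraries. P-values were adjusted (Benjamini-Hochberg) over all genes tested, with a threshold of 0.05. Because TPM are not counts, no count test was used. The fit was tested on simulated data. Sums and coefficients of variation used the TPM as deposited. Of the other genes, those with an adjusted p under 0.05, groups that do not overlap and a mean of at least 5 TPM were named, at most 8 in each direction, taken by size of log2 change. All 32 members were named. Tmem55b, Gatsl3 and Gatsl2 stood for Pip4p1, Castor1 and Castor2, and the near-identical copies Rnaset2a and Rnaset2b are uncertain. The members and lists were chosen with earlier results of these data known.

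Alternatives were a pseudocount of 0.1, quantile normalization, median-of-ratios scaling, no trend, a filter on a mean of at least 10 TPM, no filter beyond a TPM above 0, a GC correction (loess, span 0.5, of each gene's deviation on GC content from GENCODE vM21 transcripts, known for 99.4% of genes tested), a replicate block, and the omission of each library. Promoter windows came from RefSeq. Figures were drawn with matplotlib 3.10.9.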

Additional observations from a re-analysis of the deposited data

How the results depend on the processing

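Against 9 of the 32 genes called, 9 were called with a pseudocount of 0.1, 8 of 28 with a mean of at least 10 TPM and 6 without the trend. The count was 5 with all genes above 0 TPM, 5 after the GC correction, 5 after quantile normalization and 5 with median-of-ratios scaling, in each case Ctsb, Lipa, Asah1, Psap and Sqstm1. It was 2 (Lipa and Sqstm1) with the replicate block and 0 to 9 with 1 library left out, 0 whichever TVA library it was. The share called of all genes was 8.65% with a pseudocount of 0.1, 8.04% with a mean of at least 10 TPM and 7.5% without the trend. It was 2.95% with all genes above 0 TPM and 2.01% with the replicate block, so calls were lost across all genes there. Deviations from the group mean correlated between libraries of the same number at 0.157, 0.0348 and -0.0767, and the numbers were not taken to pair the samples. For the other lysosome and autophagy genes the count was 19, and 6 with all genes above 0 TPM, 12 after quantile normalization, 11 with median-of-ratios scaling, 2 with the replicate block and 1 to 36 with 1 library left out (36 without DMSO replicate 2, where 20.6% of all genes tested were called, 6 without DMSO replicate 3, where 2.71% were, and 1 without each TVA library in turn, where 0.939% to 1.15% were). The median log2 change of the 32 genes, 0.11, was 0.063 after the GC correction, 0.0706 after median-of-ratios scaling and 0.0710 without DMSO replicate 3. It was highest, at 0.12, without DMSO replicate 2. Median-of-ratios scaling brought the median of all genes tested to 0.0043.

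Of 444 values of single genes among the 32 under an alternative, 370 kept direction and side of the threshold, 61 lost the call, 1 gained it and 12 changed sign. The changes of sign were in genes not called and close to 0. After the GC correction the log2 change was 0.099 for Tfeb, -0.029 for Lamp2, 0.019 for Ctsz and -0.047 for Atp6v1a, and after median-of-ratios scaling it was -0.022 for Atp6v1a. With 1 library left out it ran from -0.16 to 0.094 for Tfeb, from -0.12 to 0.0058 for Laptm5, from -0.076 to 0.0068 for Ctsz, from -0.0030 to 0.029 for Atp6v1a, from -0.011 to 0.093 for Gabarapl1 and from -0.15 to 0.020 for Ulk1. The cause was not tested. Of 194 values of the other named genes, 105 kept direction and side and 89 lost the call. TPM keeps no depth, so the counting precision of a value is unknown.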
